A study of Mus musculus with 19 samples.

Results

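The Wnt ligands, their Frizzled receptors and the secreted Sfrp and Dkk antagonists were followed through every RNA-seq library of a mouse study that set cystic embryoid bodies (EBs) beside the visceral yolk sac (VYS). The members were all gene symbols of the deposited RefSeq transcript tables named Wnt, Fzd, Sfrp or Dkk plus their number, and where a symbol had more than 1 transcript, its most counted one on average was used. This gave 37 genes of the 23337 symbols in the tables: 19 Wnt ligands, 10 Frizzleds, 4 Sfrp genes and 4 Dkk genes. The study asked whether cystic EBs, grown from embryonic stem (ES) cells, can stand in for yolk sac endoderm (ysE).

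ysE at E9.25 (E, embryonic day) and the VYS mesoderm from the same stage had 2 libraries each, A and B, made with a stranded dUTP protocol. ysE at E12.5 had 1 non-stranded library, and E12.5 fetal liver had 2 libraries made with the stranded ScriptSeq kit. All of these tissues came from FVB mice, with the embryos of a whole litter pooled for each sample. The layers were parted with Dispase II, and the mesoderm kept its blood vessels and basement membrane. Cystic EBs at days 10 and 15 (d10, d15) had 1 library per day from each of 2 C57Bl/6x129 ES clones: A9, prepared with ScriptSeq, and JN, prepared with dUTP. Clone A9 is XY and JN is XX by the study's methods, so clone, sex and protocol cannot be told apart. Bisulfite libraries came from reciprocal crosses of Cast and FVB, labelled CxF (CastxFVB) and FxC (FVBxCast), of E12.5 ysE, E12.5 liver and d15 cystic EBs, the last grown from other ES clones (CF-C2 and FC-A2), and a map of the histone mark H3K4me3 came from whole FVB VYS at E12.5. By these sources A and B of a tissue are pools of separate litters and A and B of cystic EBs are different clones, with no more than 2 per group and day.

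Wnt proteins are secreted lipid-modified ligands that bind Frizzled receptors together with the coreceptors Lrp5 and Lrp6. Binding stabilises β-catenin, which then activates target genes with TCF/LEF factors, while ligands such as Wnt5a and Wnt11 mostly act through Frizzleds without β-catenin. Sfrp proteins carry a Frizzled-like domain and bind ligands outside the cell, whereas Dkk1 and Dkk2 bind the Lrp coreceptors. In the yolk sac, Fzd5 is known to be needed for blood vessel formation.

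Summed over the 37 members, RPKM (reads scaled by transcript length and library size, as deposited) was highest in cystic EBs, at 85.0 ± 13.0 (SD, n = 4 libraries of 2 clones), and the lowest cystic EB library (71.9) exceeded the highest of any tissue (56.9). VYS mesoderm summed to 56.9 and 43.5, liver to 33.0 and 21.7, E9.25 ysE to 22.6 and 25.4, and the E12.5 ysE library to 18.6. The ligands summed to 18.1 ± 4.21 RPKM in cystic EBs (SD, n = 4), to 12.9 and 8.59 in mesoderm and to no more than 2.02 in any ysE library. Frizzleds were present everywhere, from 13.2 RPKM in a liver library to 51.0 in a cystic EB library, and the secreted antagonists ran from 0.841 in E12.5 ysE to 25.3 in a cystic EB library. Of the 19 ligands, 4 to 8 reached 1 RPKM in a cystic EB library and 3 or 4 in a mesoderm library, but only Wnt4 did so in any ysE library (1.0 RPKM at E12.5). By group means, 16 of the 19 ligands, 5 of the 10 Frizzleds and 5 of the 8 antagonists were highest in cystic EBs. The ligands among them include Wnt1, Wnt3a, Wnt8b, Wnt10a and Wnt10b, at means of only 0.066 to 0.251 RPKM there, and the share of all genes highest in cystic EBs is not given. RPKM lacks the scaling factors of the tests, 1.122 to 1.209 in cystic EBs and 0.7663 to 0.8164 in ysE, which bring cystic EBs down relative to ysE. In counts scaled as in the tests, Fzd5 had means of 33.0 in cystic EBs and 33.4 in E12.5 ysE, so its rank changed.

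**Figure D1:**
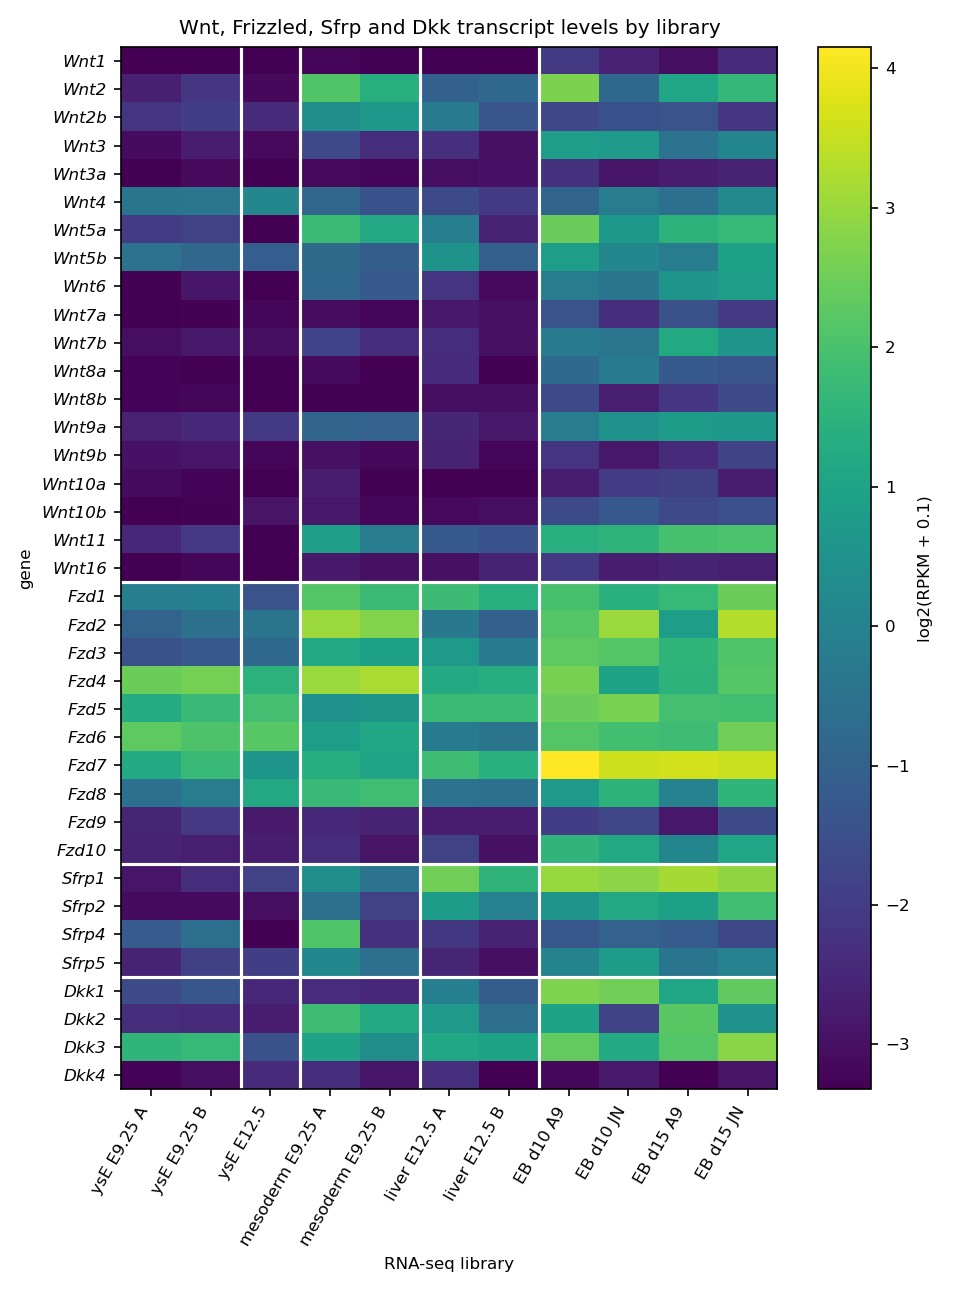
Colour gives log2(RPKM + 0.1) of the 37 genes (rows, by family) in each of the 11 RNA-seq libraries (columns, with groups parted by white lines). The cystic EB columns hold the brightest cell, Fzd7 at 17.7 RPKM, and the ligand rows are dark in the 3 ysE columns.

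All 37 members passed the filter on low counts, which asks for 0.103 CPM (counts scaled to library size) in at least 1 library. Wnt1, Wnt3a, Wnt8b, Wnt10a and Wnt10b reached it only in cystic EBs, so a difference for these 5 genes was set by the filter and their calls are descriptions. Counts entered the quasi-likelihood test of edgeR, and a gene was called at a false discovery rate (FDR) of 5% after Benjamini-Hochberg adjustment over all 24858 transcripts tested. The libraries held 40453779 to 169981821 counts. Of the markers of the labelled tissues, 8 ysE markers summed to 10300 and 11400 RPKM in E9.25 ysE, 42700 in E12.5 ysE, 1140 and 2040 in mesoderm and 1670 and 2910 in liver. In cystic EBs they summed to only 153 to 1310 RPKM, and all 8 were called lower there than in ysE of either stage. The 5 fetal hepatocyte markers did not set liver apart: they summed to 518 and 1110 RPKM in liver, 285 and 343 in E9.25 ysE and 1810 in E12.5 ysE, where Ahsg, Apoh and Fgb exceeded both liver libraries, while Alb was at 358 to 767 in liver against 80.5. Pluripotency markers (Pou5f1, Nanog, Zfp42, Dppa5a) summed to 79.1 to 317 RPKM in cystic EBs and to at most 6.09 elsewhere. In such bulk samples, fewer cells of a type and less RNA per cell cannot be told apart.

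VYS mesoderm against E9.25 ysE compares the layers of one organ at one stage and with one protocol. Mesoderm expressed several ligands and antagonists that were low in ysE, with receptors moving both ways, and 14 of 37 members were called higher (16.9% of all transcripts were) and 4 lower (13.7% of all transcripts). The median log2 fold change was 1.90 over the members, or 1.85 with Wnt1, which had no read in ysE, placed at its bound, and 0.05 over all transcripts. By family the calls were 6 higher and 0 lower among 19 ligands (9 higher and 1 lower at an unadjusted p under 0.05), 4 higher and 2 lower among 10 Frizzleds, and 4 higher and 2 lower among 8 antagonists. The share of all transcripts at the unadjusted threshold is not given.

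Wnt2, a ligand known from placental and vascular development, stood at 4.22 and 2.45 RPKM in mesoderm and at 0.059 and 0.129 in ysE. Its log2 fold change was 4.80 ± 1.03 (SE worked back from the F statistic of the test, here and below, adjusted p = 0.0068). Wnt5a stood at 3.29 and 2.20 RPKM in mesoderm against 0.144 and 0.177 in ysE (log2 fold change 3.77 ± 0.98, adjusted p = 0.017). Wnt11 was lower in level, at 1.69 and 0.804 RPKM against 0.078 and 0.138, with a log2 fold change of 3.19 ± 0.49 (adjusted p = 0.0013). Wnt2 and Wnt5a led the ligands of mesoderm by level, and for Wnt2, Wnt5a and Wnt11 both mesoderm libraries lay above both ysE libraries. Wnt2b, at 1.23 and 1.5 RPKM, Wnt9a and Wnt6 were the other ligands called higher. Wnt4, the leading ligand of ysE, was at 0.655 and 0.662 RPKM there and at 0.458 and 0.270 in mesoderm, which did not pass (adjusted p = 0.09).

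The receptors divided between the layers. Fzd2 stood at 8.0 and 6.61 RPKM in mesoderm and at 0.418 and 0.578 in ysE (log2 fold change 3.55 ± 0.70, adjusted p = 0.0044), and Fzd1, Fzd3 and Fzd8 were also called higher. Fzd6, known for its part in planar cell polarity, went the other way, from 4.80 and 4.05 RPKM in ysE to 1.72 and 2.09 in mesoderm (log2 fold change -1.53 ± 0.28, adjusted p = 0.0028). Fzd5 was also lower in mesoderm, at 1.32 and 1.45 RPKM against 2.36 and 3.18 (-1.32 ± 0.31, adjusted p = 0.010). Fzd4, a receptor best known for Norrin signalling in blood vessels, was the most abundant Frizzled of both layers and did not pass, at 8.03 and 9.03 RPKM in mesoderm and 5.46 and 5.87 in ysE (0.27 ± 0.43, adjusted p = 0.68).

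Among the antagonists, Dkk2 rose to 3.47 and 2.25 RPKM in mesoderm from 0.097 and 0.086 in ysE, and Sfrp1, Sfrp2 and Sfrp5 were called higher as well. Dkk3 was the only antagonist above 1 RPKM in E9.25 ysE, at 2.87 and 3.09, against 1.88 and 1.19 in mesoderm, and its call was marginal (adjusted p = 0.0498). Dkk1 was at 0.094 and 0.083 RPKM in mesoderm and at 0.225 and 0.302 in ysE (log2 fold change -1.89 ± 0.59, adjusted p = 0.037). Sfrp4 split the mesoderm libraries, at 4.23 RPKM in A and 0.110 in B, and was not called. Mesenchyme and mesothelium markers (5 of 7 called higher, summing to 1190 to 1490 RPKM in mesoderm and 37.1 to 56.1 in ysE), endothelial markers (4 of 4 higher, 135 to 143 against 4.99 to 6.98) and erythroid markers (6 of 6 higher, 34400 to 44100 against 857 to 1020) moved with these genes, no marker of the first 2 lists was at 0 in either layer, and their part in the result was not tested. Fewer members were called higher without ysE library A or without mesoderm library A, in fits whose share over all transcripts is not given. Fzd1, Fzd3, Sfrp1, Sfrp2 and Wnt11 (higher) and Fzd6 (lower) kept their calls in every alternative run at an FDR of 5%.

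**Figure D2:**
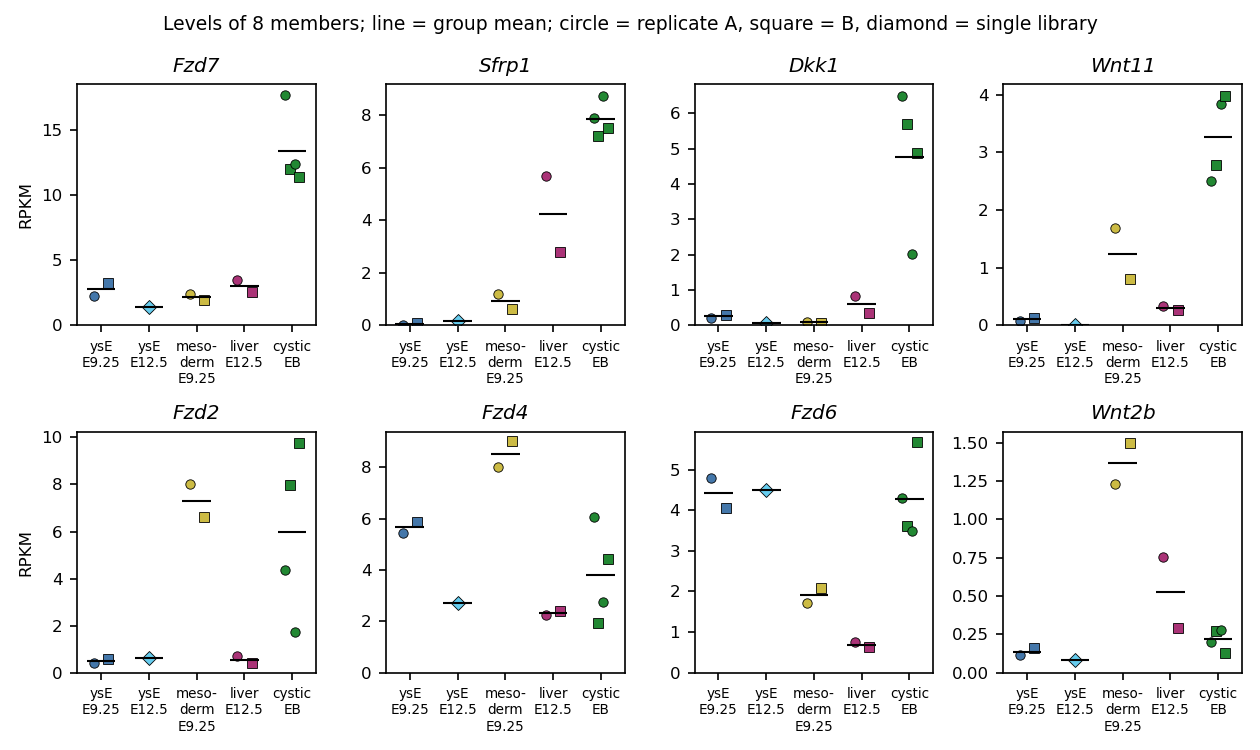
RPKM of 8 members (vertical axis, from 0) in each library by tissue, with replicate A as circles, B as squares, the single E12.5 ysE library as a diamond and a line at the group mean. All 4 cystic EB libraries lie above every tissue library for Fzd7, Sfrp1, Dkk1 and Wnt11, while Fzd4 and Wnt2b are highest in mesoderm and Fzd6 is lowest in liver.

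Cystic EBs against E9.25 ysE addresses the study's question with replicates on both sides. The test took both days of each clone as independent libraries, although the days of a clone shared deviations (correlation 0.638). Its p-values can therefore be too small. Members were mostly higher in cystic EBs: 23 of 37 were called higher (27.1% of all transcripts were) and 1 lower (23.2% of all transcripts), with a median log2 fold change of 3.18 (3.11 with Wnt1 at its bound) against 0.17 over all transcripts. The calls took in 13 of 19 ligands, 5 of 10 Frizzleds and 5 of 8 antagonists. Without the 5 ligands that passed the filter only through cystic EBs, 20 of 32 members and 10 of 14 ligands were called higher. The medians over members, here and in the later comparisons of cystic EBs, include those 5 ligands. Neural markers (4 of 4 called, 3.84 to 11.4 summed RPKM against 0.249 and 0.293), cardiac markers (4 of 4, 4.17 to 71.7 against 0.108 and 0.152), pluripotency markers (3 of 4) and mesenchyme and mesothelium markers (4 of 7, 52.2 to 288 against 37.1 and 56.1) were higher in cystic EBs. Erythroid markers (6 of 6, 12 to 128 against 857 and 1020) and fetal hepatocyte markers (3 of 5, 7.0 to 66.4 against 285 and 343) were lower. The part of all these markers was not tested. The same 4 cystic EB libraries enter each comparison that follows, and the limit on clones holds for each one with a tissue.

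Fzd7, the Frizzled known as the main one of pluripotent stem cells, was the most abundant member in every cystic EB library. It stood at 17.7 (A9) and 12 (JN) RPKM at d10 and at 12.4 and 11.4 at d15, against 2.29 and 3.25 in E9.25 ysE and 1.43 in E12.5 ysE. The groups did not overlap. The log2 fold change was 1.83 ± 0.28 against E9.25 ysE (adjusted p = 0.00066) and 2.87 ± 0.40 against E12.5 ysE (adjusted p = 0.00059). Fzd10 was at 2.84 and 2.25 RPKM at d10 and 0.971 and 2.03 at d15, with at most 0.067 in ysE.

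The promoters of Fzd7 and Fzd4 are shown because these receptors led cystic EBs and both yolk sac layers at E9.25, respectively. RefSeq promoters (GRCm38.p6, the build of the deposited files) run from 250 bases before to 50 after a gene's start, and capitals mark CpG sites. Fzd7 (chr1:59481897-59482196, plus strand) holds 24 CpGs and Fzd4 (chr7:89404116-89404415, plus strand) holds 32. The median was 26.5 over the 28 member promoters and 7 over 32851 mouse promoters, so these counts are usual for the members.
Fzd7: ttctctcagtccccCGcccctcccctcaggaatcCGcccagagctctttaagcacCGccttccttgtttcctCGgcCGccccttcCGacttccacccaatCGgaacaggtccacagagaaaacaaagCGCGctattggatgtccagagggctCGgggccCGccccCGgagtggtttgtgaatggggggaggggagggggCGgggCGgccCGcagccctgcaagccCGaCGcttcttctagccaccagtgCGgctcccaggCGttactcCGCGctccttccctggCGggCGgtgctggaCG
Fzd4: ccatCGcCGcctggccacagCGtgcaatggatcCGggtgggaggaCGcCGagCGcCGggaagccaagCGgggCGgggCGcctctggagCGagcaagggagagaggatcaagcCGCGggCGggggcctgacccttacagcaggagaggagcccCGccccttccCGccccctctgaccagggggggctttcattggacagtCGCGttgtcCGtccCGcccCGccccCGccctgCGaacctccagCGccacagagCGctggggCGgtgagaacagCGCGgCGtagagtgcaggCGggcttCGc

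Fzd4 was the 1 member called lower in cystic EBs than in E9.25 ysE. It stood at 6.08 (A9) and 1.94 (JN) RPKM at d10 and 2.77 and 4.41 at d15, against 5.46 and 5.87 in ysE, so that the groups overlapped in RPKM. In CPM scaled as in the test, cystic EBs were at 7.35 to 22.5 against a mean of 28.9 in ysE (log2 fold change -1.04 ± 0.36, adjusted p = 0.036). The call was lost with the size factors of DESeq2 (adjusted p = 0.0564), with only the groups compared in the fit (0.0764), without the A9 d15 library (0.0813), without ysE library A or B (0.14 and 0.168), and without any 1 library of mesoderm or liver (0.0523 to 0.0536). Fzd5 and Fzd6 did not pass in either direction.

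Sfrp1 was the most abundant antagonist in every cystic EB library. It stood at 7.90 (A9) and 7.18 (JN) RPKM at d10 and 8.72 and 7.50 at d15, against 0.033 and 0.097 in E9.25 ysE, a log2 fold change of 6.44 ± 0.61 (adjusted p = 6.2e-05). Dkk1, the Lrp inhibitor needed for head formation, was at 6.5 and 5.71 RPKM at d10 and 2.02 and 4.88 at d15, against at most 0.302 in ysE (3.72 ± 0.58, adjusted p = 0.00079). Dkk3 did not pass (0.18 ± 0.37, adjusted p = 0.70).

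Among the ligands, Wnt11 was called higher in cystic EBs than in each tissue, in every alternative at an FDR of 5% against ysE and liver but in only 10 of 17 against mesoderm (1.27, adjusted p = 0.0417, and 0.85, adjusted p = 0.291, without mesoderm library B, also lost without mesoderm A or either d15 library, at adjusted p = 0.0593, 0.0585 and 0.0692). It stood at 2.5 and 2.78 RPKM at d10 and 3.84 and 3.98 at d15, against 0.078 and 0.138 in E9.25 ysE (4.46 ± 0.49, adjusted p = 0.00013). Wnt3, a ligand needed for gastrulation, was at 1.70 and 1.53 RPKM at d10 and 0.617 and 0.968 at d15, against at most 0.050 in any ysE library. Wnt7b, Wnt9a and Wnt6 each exceeded 1 RPKM in at least 1 cystic EB library and stayed at or under 0.140 in ysE. Wnt2b, Wnt3a, Wnt4, Wnt5b, Wnt9b and Wnt10a did not pass.

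The Wnt11 promoter (chr7:98834862-98835161, plus strand) is shown because it is 1 of 2 member promoters, of 28 from 25 genes with an entry in the RefSeq set, that hold the TCF/LEF core CTTTGAT on either strand. The share was 7.14% of member promoters and 3.73% of all 32851. In capitals is the match, on the opposite strand, whose first printed base lies 51 bases before the start; a match is a description and not a bound site.
Wnt11: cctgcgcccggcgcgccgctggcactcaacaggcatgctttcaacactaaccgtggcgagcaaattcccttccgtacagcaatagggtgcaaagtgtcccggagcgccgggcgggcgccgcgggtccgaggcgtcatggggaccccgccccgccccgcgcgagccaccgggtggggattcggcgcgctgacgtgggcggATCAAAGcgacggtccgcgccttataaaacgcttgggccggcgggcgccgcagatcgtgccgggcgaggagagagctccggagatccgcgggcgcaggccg

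Against E12.5 ysE, a single library with a protocol of its own, 19 of 37 members were called higher in cystic EBs (21.1% of all transcripts were) and 0 lower (18.8% of all transcripts; 0 at an unadjusted p under 0.05 and 0 by DESeq2). No read of Wnt1, Wnt3a, Wnt5a, Wnt6, Wnt8a, Wnt8b, Wnt10a, Wnt11, Wnt16 or Sfrp4 was counted in that library. A floor of 3 counts there equals 0.0908 CPM, which puts Wnt5a at least 154-fold, Wnt11 at least 102-fold and Wnt6 at least 26.1-fold higher in cystic EBs. The median log2 fold change over the members was 4.28 as fitted and 2.85 with these 10 genes at their bounds, against 0.42 over all transcripts. Fzd4, Fzd5 and Fzd6, the leading receptors of ysE, did not pass (log2 fold changes 0.11, -0.02 and -0.45). Without the 5 ligands set by the filter, 18 of 32 members were called higher. Pluripotency, cardiac and endothelial markers (4 of 4 each; endothelial 7.62 to 42.0 summed RPKM against 0.193), mesenchyme and mesothelium markers (5 of 7) and neural markers (3 of 4) were higher and fetal hepatocyte markers (5 of 5) lower in cystic EBs, and their part was not tested. The share of all transcripts is not given for the unadjusted and DESeq2 counts. Tissue and protocol cannot be told apart here, and the single ysE library borrowed its spread from the other groups.

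Cystic EBs against liver, the study's embryonic endoderm reference, gave 20 of 37 members called higher (24.6% of all transcripts were) and 1 lower (20.9% of all transcripts), with a median log2 fold change of 1.81 against 0.20. Without the 5 ligands set by the filter, 16 of 32 were called higher. Frizzleds made up 6 of the higher calls. Fzd6 was at 0.747 and 0.641 RPKM in liver and at 3.48 to 5.68 in cystic EBs (2.28 ± 0.26, adjusted p = 0.00019). Fzd7 was at 3.49 and 2.58 RPKM in liver, a difference of 1.81 ± 0.28 (adjusted p = 0.00083). Fzd1, Fzd4 and Fzd5 did not pass, with log2 fold changes of 0.00, 0.36 and 0.17.

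Of the antagonists, Dkk1 and Sfrp5 passed. Sfrp5 was at 0.070 and 0.021 RPKM in liver and 0.644 to 1.63 in cystic EBs (4.13 ± 0.75, adjusted p = 0.0021). Sfrp1 did not, at 5.69 and 2.81 RPKM in liver (0.55 ± 0.43, adjusted p = 0.32), and neither did Sfrp2 (0.46 ± 0.54). Liver library A exceeded B for Sfrp1, Dkk2 (1.55 against 0.541 RPKM) and Wnt5a (0.812 against 0.066), and its 7 mesenchyme and mesothelium markers summed to 121 RPKM against 77.8; their part was not tested. Wnt2b, the only member called lower, was at 0.755 and 0.293 RPKM in liver and 0.126 to 0.279 in cystic EBs (-1.59 ± 0.47, adjusted p = 0.022), and lost its call without liver library A. Fetal hepatocyte (5 of 5 called, 7.0 to 66.4 summed RPKM in cystic EBs) and erythroid markers (5 of 6, 12 to 128 against 1370 and 1540 in liver) were lower in cystic EBs, and pluripotency (4 of 4), neural (3 of 4, 3.84 to 11.4 against 0.069 and 0.751) and mesenchyme and mesothelium markers (3 of 7) were higher; their part was not tested. Fewer members were called higher without liver library B. With the ScriptSeq libraries alone, which are liver and clone A9, 17 were called higher. The share of all transcripts called is not given for these fits, so a loss particular to the members cannot be told from a general one.

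**Figure D3:**
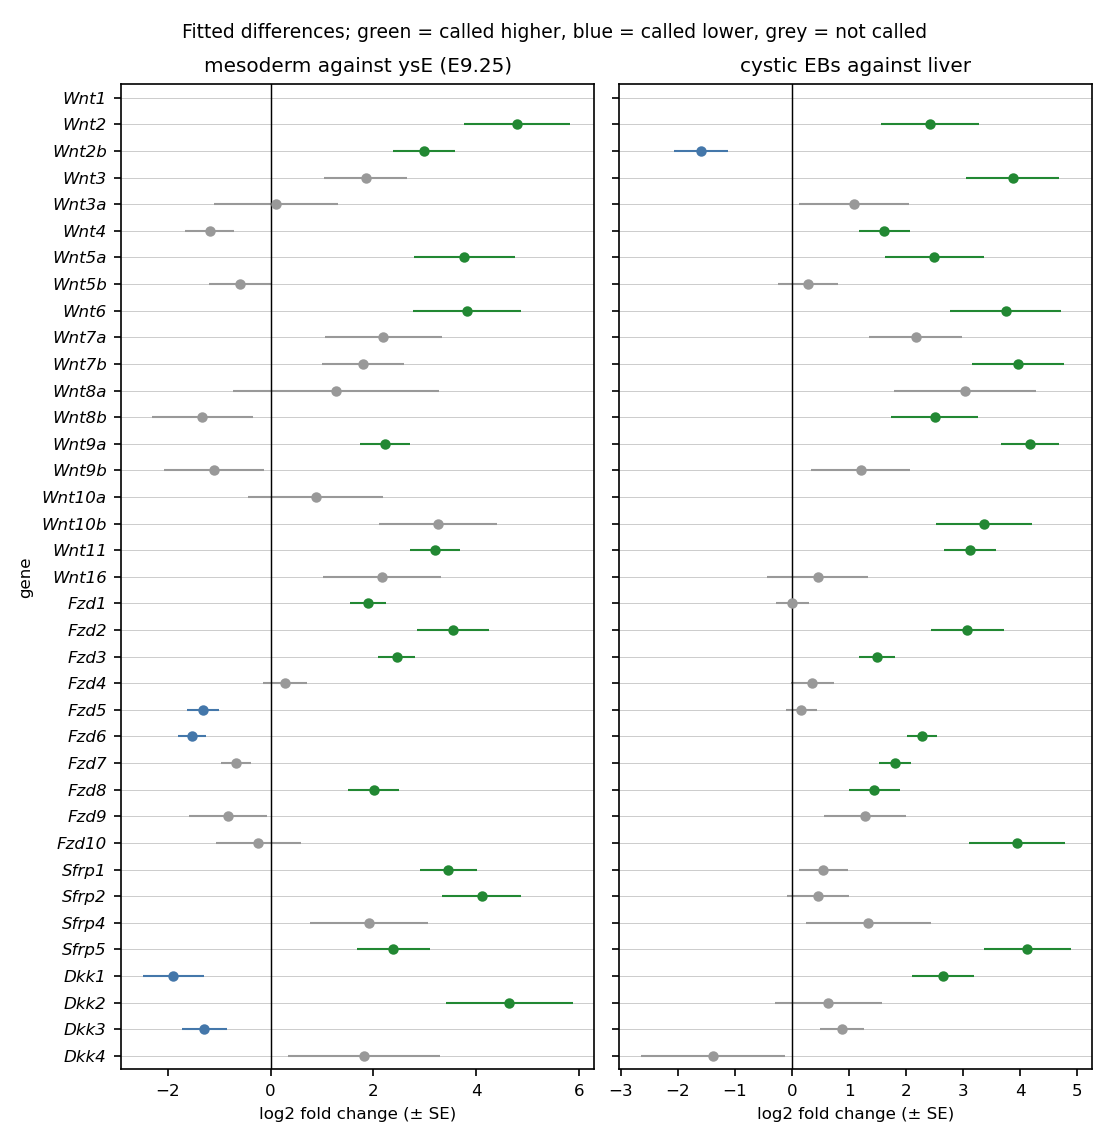
Points give the fitted log2 fold change of each member, with its SE as a bar, for mesoderm against E9.25 ysE (left) and cystic EBs against liver (right). Genes without a read in one group (Wnt1 on both sides, Wnt10a on the right) are left blank, and Fzd6 is called lower on the left and higher on the right.

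Cystic EBs against VYS mesoderm asks whether cystic EBs match the mesoderm layer, with its vessels and blood, instead. Here 17 of 37 members were called higher (13.9% of all transcripts were) and 3 lower (15.0% of all transcripts), with a median log2 fold change of 1.47 against 0.03. Without the 5 ligands set by the filter, 14 of 32 were called higher. Of the 7 most abundant members of mesoderm by mean RPKM, Wnt2 (-0.31 ± 0.74), Wnt5a (0.08 ± 0.76), Fzd1 (-0.17 ± 0.29), Fzd2 (-0.44 ± 0.54), Fzd8 (-0.88 ± 0.40) and the antagonist Dkk2 (-0.60 ± 0.89) did not pass, whereas Fzd4 was called lower in cystic EBs. Missing the threshold does not show that their levels match. Dkk1, in contrast, stood at 0.094 and 0.083 RPKM in mesoderm (5.61 ± 0.65, adjusted p = 0.00048). Sfrp1 was at 1.20 and 0.622 RPKM in mesoderm (2.99 ± 0.49, adjusted p = 0.0026), and Fzd7 at 2.40 and 1.96 (2.49 ± 0.29, adjusted p = 0.00046).

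Wnt2b, Fzd4 and Sfrp4 were called lower in cystic EBs than in mesoderm. Wnt2b, at 1.23 and 1.5 RPKM in mesoderm and at most 0.279 in cystic EBs, kept its call in every alternative at an FDR of 5% (-2.76 ± 0.47, adjusted p = 0.0031). Fzd4 differed by -1.31 ± 0.36 (adjusted p = 0.024) and lost its call without either mesoderm library. Sfrp4 was called at the threshold (adjusted p = 0.047) and kept its call in 4 of 17 alternatives. Without mesoderm library A its difference was 1.37 in the other direction (adjusted p = 0.278). Leaving out mesoderm library A or B left fewer members called higher, in fits whose share over all transcripts is not given. Dkk1, Fzd5, Fzd7, Sfrp1 and Wnt8b were called higher in every alternative at an FDR of 5%, although Wnt8b passed the low-count filter only through cystic EBs. Pluripotency markers (4 of 4 called), cardiac markers (3 of 4) and neural markers (2 of 4) were higher in cystic EBs, and endothelial (3 of 4), mesenchyme and mesothelium (3 of 7) and erythroid markers (6 of 6) were lower; their part was not tested.

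Between ysE at E12.5 and at E9.25, 0 of 37 members were called higher (3.9% of all transcripts; 2 at an unadjusted p under 0.05 and 1, Fzd8, by DESeq2) and 2 were called lower (4.57% of all transcripts; 6 at an unadjusted p under 0.05 and 5 by DESeq2). With only the ysE libraries in the fit, more members were called in both directions. The spread of that fit came from the E9.25 libraries alone. The share of all transcripts called is not given for it, nor for the unadjusted and DESeq2 counts. Dkk3 was at 0.263 RPKM at E12.5 against 2.87 and 3.09 at E9.25 (-3.59 ± 0.65, adjusted p = 0.013). Wnt11 had no read at E12.5 and was at least 4.59-fold lower than at E9.25 by the floor of 3 counts (adjusted p = 0.019). Among Frizzleds, Fzd4 and Fzd6 led at E9.25 and Fzd6 and Fzd5 at E12.5. Fzd6 was at 4.80, 4.05 and 4.51 RPKM and Fzd5 at 2.36, 3.18 and 3.70 in the E9.25 A, E9.25 B and E12.5 libraries. Endothelial markers fell (3 of 4 called, from 4.99 and 6.98 summed RPKM to 0.193), as did mesenchyme and mesothelium markers (2 of 7, from 37.1 and 56.1 to 21.7) and erythroid markers (3 of 6, from 857 and 1020 to 225), whereas fetal hepatocyte markers rose (3 of 5, from 285 and 343 to 1810), and their part was not tested. Without E9.25 library B both calls were lost (adjusted p = 0.0589 for Dkk3 and 0.0683 for Wnt11), and without library A that of Dkk3 was (0.0623). Stage and protocol cannot be told apart, and the single E12.5 library borrowed its spread from the other groups.

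Within cystic EBs, d15 against d10 gave 0 calls over the 35 members tested (0.0% of all 22452 transcripts were called in either direction). At an unadjusted p under 0.05, 1 member differed by edgeR, Wnt7b, which rose in both clones, from 0.731 to 2.22 RPKM in A9 and from 0.667 to 1.37 in JN, and DESeq2 called 0. The share of all transcripts at that unadjusted threshold is not given, so the values of Wnt7b are a description. The clones were tied by the label, and their deviations at d10 and d15 correlated at 0.638 over transcripts. With clone as a replicate block the count of called members was again 0. Dkk2 was the 1 member whose log2(CPM + 0.5) went up by at least 1 in both clones, from 1.92 to 4.67 RPKM in A9 and from 0.192 to 1.30 in JN.

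At d10 the clones stood apart for several members. Wnt2 was at 6.27 RPKM in A9 at d10 and at 0.481 in JN, and at 2.06 and 3.05 at d15. Wnt5a was at 5.38 and 1.47 RPKM at d10 and at 2.75 and 3.09 at d15. The JN d10 library was the lowest of the 4 for Wnt2, Wnt5a, Fzd4, Dkk2 and Dkk3 but not for Fzd7 or Dkk1, and Sfrp1 ran only from 7.18 to 8.72 over the 4 libraries. That library also held the least summed RPKM of mesenchyme and mesothelium markers (52.2 against 205 to 288 in the other 3 libraries), endothelial markers (7.62 against 18.1 to 42.0) and cardiac markers (4.17 against 16.3 to 71.7), and the most of pluripotency markers (317 against 79.1 to 223). Their part was not tested.

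**Figure D4:**
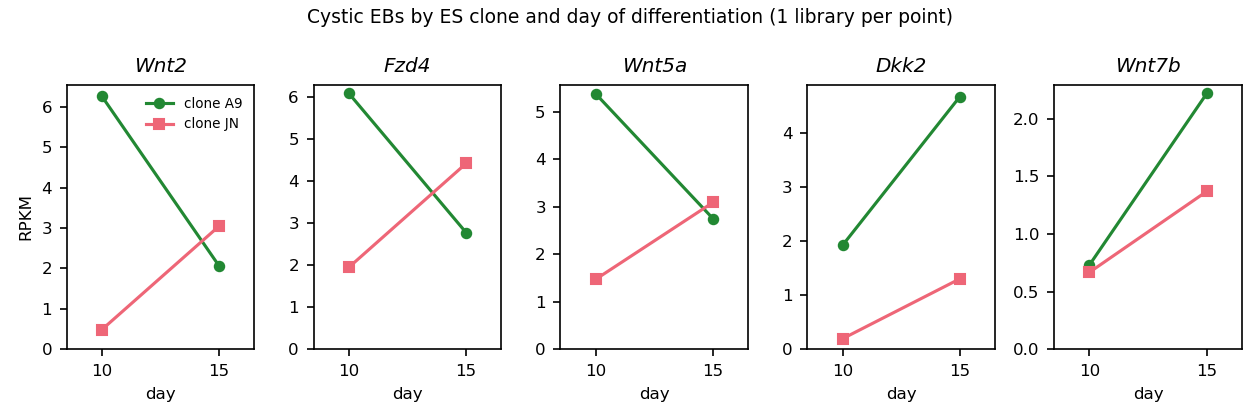
RPKM of 5 members (vertical axis, from 0) against day of differentiation in cystic EBs of clone A9 (circles) and clone JN (squares), with 1 library per point. Wnt2 falls in A9 and rises in JN, and Fzd4 does the same, whereas Dkk2 and Wnt7b rise in both.

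The rest of the pathway was read from 5 lists, chosen with earlier results of these data known, that hold ligand release, other extracellular regulators, coreceptors and receptor turnover, intracellular transduction, and targets with feedback genes. Of their 59 tested genes, 34 were called higher and 7 lower for cystic EBs against E9.25 ysE (27.1% and 23.2% of all transcripts were), 22 and 4 against liver (24.6% and 20.9%), 20 and 5 against mesoderm (13.9% and 15.0%), and 13 and 5 in mesoderm against ysE (16.9% and 13.7%), the last close to the share over all transcripts on the higher side. Of the 59, Cer1, Dkkl1, Fgf20, Sp5 and T reached the low-count filter only in cystic EBs, so their calls are descriptions. Without them 29 of 54 genes were called higher against E9.25 ysE, 18 against liver and 16 against mesoderm. The same shares of all transcripts stand beside the counts that follow. Between cystic EBs and E9.25 ysE the transduction list had 7 of 17 genes higher and 3 lower and a median log2 fold change of 0.60. Its β-catenin gene Ctnnb1 ran from 148 RPKM in a liver library to 330 in E12.5 ysE.

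Outside the cell, 8 of 11 other regulators were called higher in cystic EBs than in E9.25 ysE (27.1% of all transcripts were) and 0 lower (23.2%; median log2 fold change 4.94 with Cer1 and Dkkl1 included), or 6 of 9 higher without Cer1 and Dkkl1. Rspo3, an R-spondin that strengthens Wnt signals, was at 2.59 to 7.83 RPKM in cystic EBs and at 0.031 and 0.047 in E9.25 ysE (6.25 ± 0.63, adjusted p = 8.6e-05). In mesoderm it was at 1.77 to 2.31 RPKM (5.35 ± 0.63 against ysE, adjusted p = 0.00041). Frzb, a secreted Frizzled-related antagonist whose name the rule does not take in, was at 5.76 to 6.99 RPKM in cystic EBs against at most 0.212 in mesoderm (4.96 ± 0.31, adjusted p = 2.2e-05). Wls, which carries Wnt proteins to the cell surface, was at 24.3 and 24.6 RPKM in E9.25 ysE and 3.31 at E12.5 (-2.97 ± 0.50, adjusted p = 0.0092), where E12.5 is 1 library whose spread is borrowed and whose protocol cannot be told apart from the stage.

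Of 10 tested target and feedback genes, 8 were called higher and 2 lower for cystic EBs against E9.25 ysE (27.1% and 23.2% of all transcripts; median log2 fold change 2.76, or 2.61 with the gene without ysE reads at its bound). That median includes Fgf20, Sp5 and T, whose difference the filter set. Against mesoderm 5 were higher and 2 lower (13.9% and 15.0% of all transcripts) and against liver 4 and 2 (24.6% and 20.9%). Without Fgf20, Sp5 and T, 5 of 7 were higher against E9.25 ysE, 3 against mesoderm and 2 against liver, with 2 lower in each. The lower ones in both were Ccnd1, a cell cycle gene at 11.8 to 20.7 RPKM in cystic EBs, 36.9 and 37.2 in mesoderm and 39.1 and 56.1 in liver (-1.29 ± 0.23, adjusted p = 0.0037, and -1.86 ± 0.23, adjusted p = 0.00026), and Myc, a growth regulator. Myc was at 1.02 to 1.86 RPKM in cystic EBs, 3.83 and 3.89 in mesoderm and 3.17 and 4.16 in liver (-1.72 ± 0.29, adjusted p = 0.0027, and -1.84 ± 0.29, adjusted p = 0.00092). The T gene, a mesoderm regulator activated by Wnt3, was at 1.24 to 11.2 RPKM in cystic EBs and at most 0.032 in any tissue library. Lef1, a TCF/LEF factor counted in the transduction list, was at 0.64 to 2.82 RPKM against at most 0.139 in the tissues (5.53 ± 1.03 against mesoderm, adjusted p = 0.0046). Sp5 spread over 0.05 to 2.41 RPKM between cystic EB libraries and was at most 0.011 in the tissues. T and Sp5 are given as descriptions, since the filter set their difference. In mesoderm against ysE the called targets were Ccnd1 (4.21 ± 0.31, adjusted p = 0.00013), Nkd1 (3.21 ± 0.46, adjusted p = 0.00093) and Nkd2, all higher, and Cdx2, lower (-3.64 ± 0.64, adjusted p = 0.0025).

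H3K4me3, a mark of active promoters, was mapped in whole VYS at E12.5 as a list of 22343 peaks. Starts were taken from the RefSeq promoter set for 25 members, and 14 of them (56.0%) had a peak within 1000 bases, beside 46.4% of 27025 genes. Where a gene had more than 1 start, the one nearest a peak was taken, for members and all genes alike. That choice favours genes with several starts, so the shares partly reflect it. For peaks in the upper 50% by score the counts turned to 5 members (20%) and 36.1% of genes. Those 5, Dkk2, Fzd1, Fzd4, Fzd5 and Fzd7, had a highest group mean of 2.77 to 8.53 RPKM among the ysE and mesoderm groups. The 9 with a weaker peak ranged from 0.033 to 3.33 RPKM and the 11 without a peak from 0.005 to 0.776, among them Sfrp5, Wnt6, Sfrp2, Wnt3 and Wnt10b. The peak of Wnt11 (chr7:98834681-98835280) spanned its start with a score of 76.16, and that of Fzd4 (chr7:89404353-89407155) scored 3100. That score was shared by 5262 of the peaks, so ties at it do not rank the mark. For 12 members the promoter set gave no entry; Sfrp1, Wnt5a, Fzd3, Fzd6 and Sfrp4 had a peak at 1 end of the gene, which was taken as the start. Of these, Sfrp1 also scored 3100, at a highest group mean of only 0.911 RPKM, and Fzd6 (4.51 RPKM) and Wnt5a (2.75) were also in the upper 50%. The other 7 (Dkk3, Dkk4, Fzd2, Fzd8, Wnt7b, Wnt8a and Wnt10a) were not analysed here for peaks or methylation. The stage differs from that of the mesoderm libraries.

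CpG methylation was read from bisulfite libraries of 6695942 to 11554658 reads at CpGs each. Read numbers here are sums over CpGs, so 1 read over several CpGs counts at each of them. Within 1000 bases of the start, coverage was thin: 7 members had at least 10 reads in both cystic EB libraries, 5 in both ysE and 3 in both liver libraries. In cystic EBs Fzd4 was methylated at 4.8% (42 reads) and 10.0% (10 reads), Fzd5 at 0.0% (22) and 10.0% (10) and Fzd7 at 11.1% (18) and 8.3% (12). Wnt7a was at 58.8% (17 reads) and 40% (10). Wnt6 was at 50% (10) and 22.2% (18), and Wnt9a at 23.5% (17) and 3.8% (26). For 10 further members 1 cystic EB library had enough reads. Among these receptors Fzd10 was at 0.0% (14), Fzd3 at 29.4% (17), Fzd1 at 65.2% (23) and Fzd6 at 84.6% (13), and the antagonists Dkk2 and Sfrp2 were at 47.4% (19) and 72.0% (25). The ligands Wnt5a, Wnt1, Wnt3 and Wnt11 were at 45.5% (11), 54.5% (11), 67.9% (28) and 72.2% (18). The window matters for such values: within 500 bases the same Fzd1 library was at 20% (10 reads), Wnt6 at 0.0% (12, FxC) and Wnt9a at 0.0% in both (10 and 18), while Fzd4 stayed at 5.9% (34, CxF). In the same cystic EB libraries, Wnt3, Wnt11, Sfrp2 and Fzd5 had 0 reads within 500 bases. Fzd6 had 1 read there, Dkk2 3, Wnt5a 5 and Fzd3 7, too few for a value. Wnt7a had 7 (CxF) and 0 (FxC), and Fzd7 had 7 and 4. The values of these genes rest mostly or wholly on reads further out and do not show the state at the start. Wnt1 was not lower within 500 bases (10 reads, FxC), and Fzd10 stayed at 0.0% (14, FxC). Some members had enough reads in ysE and cystic EBs of 1 cross. In CxF, ysE and cystic EBs were at 42.3% and 65.2% for Fzd1, 21.1% and 58.8% for Wnt7a, 15.4% and 11.1% for Fzd7 and 0.0% in both for Fzd5. In FxC, Fzd10 was at 21.4% and 0.0%. Wnt9b was the only member with enough reads in both libraries of cystic EBs and of ysE: 69.2% (13 reads) and 89.1% (46) in cystic EBs against 27.3% (11) and 30.8% (13) in ysE. The exact 95% binomial (Clopper-Pearson) intervals were 38.6 to 90.9% and 76.4 to 96.4% in cystic EBs and 6.0 to 61.0% and 9.1 to 61.4% in ysE. They cover counting error at most. They take the summed reads as independent, which CpGs on the same read are not, so they can be too narrow. With 2 libraries against 2, an exact permutation test cannot go below p = 0.33. Most of these Wnt9b reads lay more than 500 bases from the start: within 500 bases cystic EBs had 6 and 2 reads and ysE 4 and 3, too few for a value. Wnt9b had 0.04 to 0.189 RPKM in cystic EBs and at most 0.038 in ysE.

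Gene bodies, taken as the gene outside that promoter window, were better covered. Over 17 members with at least 10 reads in each library, the median was 59.7% ± 4.48 in ysE, 77.5% ± 1.45 in liver and 84.2% ± 5.1 for cystic EBs (SD over 2 libraries), beside 70.9% ± 4.25, 81.2% ± 1.09 and 85.6% ± 3.14 over 15458 genes. In 13 of the 17, both ysE libraries lay under both cystic EB libraries (66.3% of all genes did), and in 13 of 17 under both liver libraries (58.4% of all genes). Wnt2 was at 52.3% and 50% in ysE (264 and 138 reads) and at 91.4% and 82.7% in cystic EBs (301 and 214 reads). Dkk2 was at 61.3% and 40.5% in ysE and 93.8% and 86.2% in cystic EBs. The Fzd4 body was at 90.7% (97 reads) and 55.0% (20 reads) in ysE, so that the ysE libraries lay further apart than the cystic EB libraries did (94.1% and 80.0%).

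**Figure D5:**
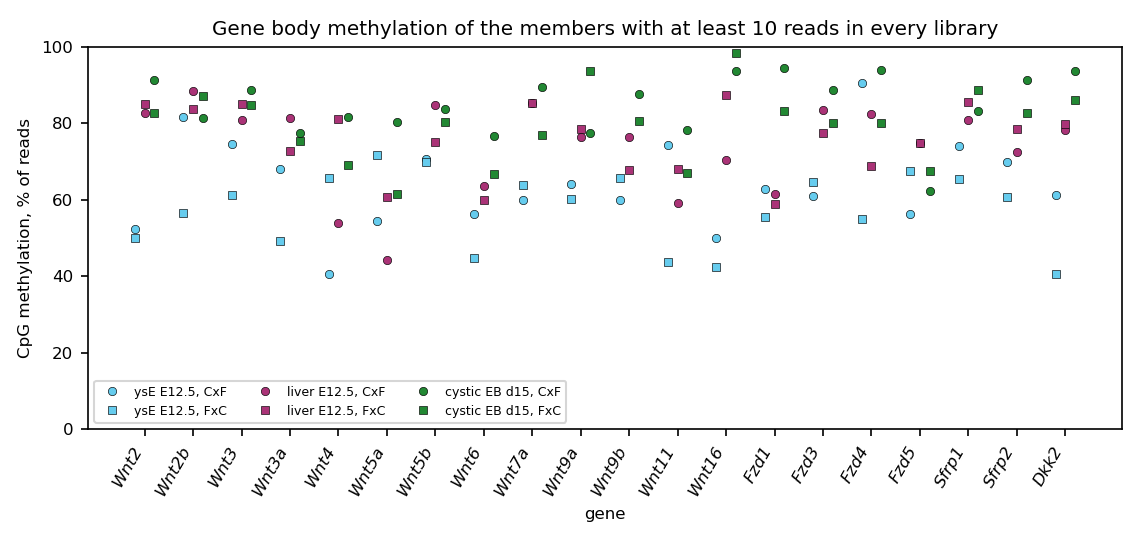
Percent of reads methylated at CpGs of the gene body (vertical axis, 0 to 100) for the 20 members with at least 10 reads in each of 6 libraries, the 3 without a promoter entry included, by tissue (colour) and cross (circle CxF, square FxC). Both ysE points lie under both cystic EB points for 15 of the 20 genes, and the exceptions are Fzd4, Fzd5, Wnt11, Wnt2b and Wnt5a.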

How the data were processed

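Per the file headers and the study's methods, the authors aligned reads with GSNAP to mm10 and counted them over RefSeq transcripts; these raw counts per transcript were deposited, as were RPKM values that the authors scaled by transcript length and library size. How strand and reads at several places were treated is not given in the sources used here. The deposited bisulfite files hold the percent methylated, with a read number, for each CpG and strand. The deposited H3K4me3 peaks carry a score from MACS (1.4.2). Percents were turned back into methylated reads and pooled over each window, 1000 bases to either side of the start, with 500 as an alternative. Methylation was not analysed here for Sfrp4, Dkk1, Sfrp5 and Wnt8b, for 7 members without a start (Dkk3, Dkk4, Fzd2, Fzd8, Wnt7b, Wnt8a and Wnt10a) and, in liver, for Fzd6, Wnt10b and Wnt1.

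Counts were fitted with edgeR 4.0.16 in R 4.3.3 (TMM factors, its default low-count filter with 5 tissue groups, quasi-likelihood test), all 11 libraries sharing 1 spread, and the days in a fit of the 4 cystic EB libraries. The SE of a fold change was its absolute log2 value over the square root of the test's F statistic, as the fit itself reports none. DESeq2 1.42.0 was an alternative. The scripts were tested on simulated data. E12.5 ysE was the only library of its group and borrowed its spread from the others. Same letters mark the same clone in cystic EBs (correlation of deviations 0.638). Both days of a clone entered the tissue tests as independent libraries, with the replicate block as an alternative. The members and lists were chosen with earlier results of these data known. Every member could be named; pathway genes were named where called with the 8 largest changes of a comparison, and Ctnnb1, Nkd2, Myc and Ccnd1 in cystic EBs, the pathway genes set by the low-count filter and the promoters shown were chosen after values were seen. Tables of repeats and exon parts were not used here. The libraries held 40453779 to 169981821 counts. Intervals of methylation cover counting error at most, and can be too narrow because a read over several CpGs counts at each.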

Additional observations from a re-analysis of the deposited data

Results flagged for a closer look

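Wnt2 and Fzd4 moved in opposite directions with days in culture in the ES clones, each by at least 1 on the scale of log2(CPM + 0.5). For Wnt2 the d15 minus d10 difference was -1.42 in clone A9 and 2.11 in clone JN. For Fzd4 it was -1.01 in A9 and 1.04 in JN. Each clone gave 1 library per day, so the difference between clones was not tested, and clone and library protocol cannot be told apart. None of the 37 members had 1 cystic EB library standing apart from the other 3 by Dixon's criterion.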

How the results depend on the processing

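Of the values of single members under another setting, 3879 kept their side of the threshold, 206 lost a call, 78 gained one and 1 turned. Direction was compared only where the main or the other setting gave a call. The value that turned was the difference of Sfrp4 between cystic EBs and mesoderm, which was 1.37 without mesoderm replicate A and -3.82 without replicate B. Counts are given as members higher, then lower. They stand without the share of all transcripts called under the same setting, so a change particular to the members cannot be told from a general one. At an FDR of 1%, mesoderm against E9.25 ysE gave 9 and 1, cystic EBs against mesoderm 6 and 1, against liver 11 and 0, and against E9.25 ysE 0 lower, and E12.5 against E9.25 ysE 0 lower. With only the groups compared, E12.5 against E9.25 ysE gave 4 and 8, and cystic EBs 1 lower against mesoderm, 0 against liver and 0 against E9.25 ysE. DESeq2 gave 1 and 5 for the ysE stages, its size factors 0 lower for cystic EBs against E9.25 ysE, and ScriptSeq libraries alone 0 lower against liver. Those size factors moved the median of all transcripts between ysE stages from -0.205 to -0.042. Leaving out 1 library gave 5 to 14 and 1 to 4 for mesoderm against ysE, 5 to 18 and 1 to 2 for cystic EBs against mesoderm, 10 to 22 and 0 to 1 against liver, 19 to 24 and 0 to 2 against E9.25 ysE, and 0 to 1 and 0 to 3 between ysE stages. The cause was not tested. With the upper 50% of peaks, 5 members had one near the start in place of 14.

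With the replicate letter as a replicate block, counts were 14 and 4 for mesoderm against ysE, 24 and 1 for cystic EBs against E9.25 ysE, 21 and 1 against liver, 17 and 2 against mesoderm, where Sfrp4 lost its call (-2.41, adjusted p = 0.107), and 0 and 0 for the days. These counts too stand without the share of all transcripts called. Apart from the clones of cystic EBs (0.638), deviations of same-letter libraries correlated at only -0.0859 to 0.174. In the single E12.5 ysE library 3 counts equal 0.0908 CPM.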
